A study of Homo sapiens with 12 samples.

Results

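The IGF binding proteins (IGFBP2 to IGFBP7), both IGF receptors (IGF1R and IGF2R) and the insulin receptor substrates IRS1 and IRS2 were followed in newly made RNA of U2OS-MycER cells. These 10 genes were chosen by name from the 23434 rows of the count table, with Entrez gene identifiers 3485 to 3490 for IGFBP2 to IGFBP7, 3480 for IGF1R, 3482 for IGF2R, 3667 for IRS1 and 8660 for IRS2. All 10 were found. The list was drawn up with the fall of IGFBP5 in shNT cells given OHT already known, so the comparison of shNT+OHT with shNT, and every measure that contains it, is given for these genes as a description and without a p-value. For IGFBP5 no p-value is given in any comparison that uses an shNT or shNT+OHT library.

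Insulin-like growth factors act through IGF1R, a receptor tyrosine kinase that docks IRS1 and IRS2 and through them turns on PI3K, AKT and mTOR, while IGF2R lacks kinase activity and carries IGF2, together with mannose 6-phosphate tagged enzymes, to lysosomes. The secreted IGF binding proteins hold the ligands away from the receptor or deliver them to it, and proteases such as PAPPA cut the binding proteins to free them. In bone, IGFBP5 is a major binding protein of osteoblasts and their matrix, and IGFBP6 prefers IGF2 over IGF1.

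U2OS is a human osteosarcoma line, and U2OS-MycER cells express a chimera of Myc and the estrogen receptor that 4-hydroxytamoxifen (OHT) activates. In the EU-seq experiment 5-ethynyl-uridine (EU) was fed to the cells in a pulse, and RNA made during that pulse was tagged with biotin, captured and sequenced, so the counts follow transcription in that window. The 12 libraries fall into 4 groups of 3, all with doxycycline at 1 µg/mL: a non-targeting shRNA (shNT), shNT with OHT at 300 nM for 40 h (shNT+OHT), an shRNA labelled as directed at CDK12, a kinase of elongating RNA polymerase II (shCDK12), and that shRNA with the same OHT treatment (shCDK12+OHT). In every group cells were held in nocodazole at 100 ng/mL for 8 h, released for 12 h and given 0.5 mM EU for 2 h, and 40 µg of human RNA was mixed with 10 µg of mouse RNA. No source used here says whether replicates were separate cultures, and p-values then measure only the spread between libraries, which may be technical.

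Total counts were 1928373 to 5227279 in shNT, 1251695 to 3666406 in shNT+OHT, 4142570 to 9400045 in shCDK12 and 5378438 to 10447836 in shCDK12+OHT, an 8.35-fold range in which the shNT groups were the shallowest. Levels are in CPM (counts scaled to a common library total, with TMM over the 12 libraries), and since the table has no mouse rows, a change of total transcription cannot be seen in them. CDK12 was at 289 to 323 CPM in shNT and 277 to 298 CPM in the libraries labelled shCDK12, which overlap. Its log2 fold change there was -0.08 (SE 0.084, adjusted p = 0.447, edgeR). It was at 356 to 434 CPM in shNT+OHT and 208 to 218 CPM in the libraries labelled shCDK12+OHT, below every other library. An shRNA acts on finished mRNA and need not lower RNA made in the pulse, so these counts cannot settle whether a label is right. The labels were not tested in another way, and the results are given for the libraries as labelled. For CDK12 and the 4 members with enough counts over all 12 libraries (IGFBP5, IRS1, IGF1R and IGF2R) the shRNA contrast averaged over OHT is given as well, which is the same whichever of the groups labelled shCDK12 and shCDK12+OHT received OHT. In that average CDK12 had a log2 difference of -0.49 (SE 0.066, edgeR adjusted p = 3.20e-06).

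Of 9 genes known from osteosarcoma and mesenchymal cells, RUNX2, COL1A1, VIM and SPARC had 100 or more counts in every library, ALPL had 6 to 38 counts, and COL1A2, TWIST1, SP7 and BGLAP, the last of these the osteocalcin gene, were at or near 0, with at most 5, 2, 13 and 2 counts. The summed level of the 9 genes was 836 to 926 CPM in shNT, 668 to 712 CPM in shNT+OHT, 367 to 376 CPM in the libraries labelled shCDK12 and 463 to 481 CPM in those labelled shCDK12+OHT, so the sum moved with the groups in the same order as IGFBP5 below. The group means of RUNX2, COL1A1, SPARC and ALPL kept that order. VIM did not, at 323 CPM in shNT, 330 in shNT+OHT, 179.5 in shCDK12 and 174 in shCDK12+OHT. SP7 ran in the reverse order on few counts, and COL1A2, TWIST1 and BGLAP, at or near 0, did not keep it either. The part of the shift of the sum in the results for IGFBP5 was not tested. Of 5 epithelial markers KRT19 was at 0 in every library, KRT8 and KRT18 were present throughout, CDH1 had 10 to 84 counts and EPCAM had 0 to 91. From shNT to shCDK12 the mean of EPCAM went from 0.82 to 8.03 CPM and that of CDH1 from 9.57 to 6.10 CPM. The sum of the 5 markers was 693 to 764 CPM in shNT, 679 to 830 CPM in shNT+OHT, 652 to 752 CPM in shCDK12 and 886 to 970 CPM in shCDK12+OHT. The 4 haematopoietic markers together had at most 11 counts and the 3 endothelial ones at most 24 in a library.

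Promoter sequences are shown for the 5 members whose transcription could be tested in at least 1 comparison, because several of them moved together below. The 250 bases before their RefSeq start (GRCh38.p14, 5′ to 3′ on the strand of the gene) were searched on both strands for CACGTG, the E-box that Myc and MAX bind, the TATA box as TATAAA, the GC box of SP1 as GGGCGG, the CCAAT box by its own letters, and the AP-1 site as TGACTCA. Each match is in capitals, GC boxes may run into each other, and no other pair of motifs overlapped here. The windows are chr2:216695550-216695799 (minus strand) for IGFBP5, chr12:53097417-53097666 (plus) for IGFBP6, chr15:98648289-98648538 (plus) for IGF1R, chr6:159968832-159969081 (plus) for IGF2R and chr2:226799821-226800070 (minus) for IRS1.
IGFBP5: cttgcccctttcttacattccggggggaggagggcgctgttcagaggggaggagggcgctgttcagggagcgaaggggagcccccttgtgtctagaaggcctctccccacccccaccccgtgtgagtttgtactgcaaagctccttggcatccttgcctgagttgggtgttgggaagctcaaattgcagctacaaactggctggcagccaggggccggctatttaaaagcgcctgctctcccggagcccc
IGFBP6: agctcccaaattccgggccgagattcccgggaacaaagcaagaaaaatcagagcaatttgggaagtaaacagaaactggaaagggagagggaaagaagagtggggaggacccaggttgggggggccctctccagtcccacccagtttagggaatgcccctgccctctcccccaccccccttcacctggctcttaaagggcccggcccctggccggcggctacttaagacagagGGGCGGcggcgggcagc
IGF1R: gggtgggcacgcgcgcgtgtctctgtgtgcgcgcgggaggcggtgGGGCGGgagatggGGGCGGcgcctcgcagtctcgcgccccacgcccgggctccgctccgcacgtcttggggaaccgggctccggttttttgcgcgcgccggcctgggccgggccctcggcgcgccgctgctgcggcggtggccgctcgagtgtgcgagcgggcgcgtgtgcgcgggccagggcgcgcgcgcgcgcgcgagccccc
IGF2R: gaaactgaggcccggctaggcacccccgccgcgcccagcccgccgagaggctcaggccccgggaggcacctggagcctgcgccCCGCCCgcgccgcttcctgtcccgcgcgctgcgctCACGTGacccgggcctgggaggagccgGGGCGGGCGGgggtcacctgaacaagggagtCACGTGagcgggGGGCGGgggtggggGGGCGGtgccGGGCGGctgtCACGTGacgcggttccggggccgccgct
IRS1: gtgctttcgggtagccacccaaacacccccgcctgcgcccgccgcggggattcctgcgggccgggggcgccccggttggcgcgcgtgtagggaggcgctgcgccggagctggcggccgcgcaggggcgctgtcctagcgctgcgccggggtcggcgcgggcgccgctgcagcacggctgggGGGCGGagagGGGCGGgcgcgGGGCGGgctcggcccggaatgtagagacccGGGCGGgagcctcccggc

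The IGFBP5 window holds none of the 5 motifs in the exact letters searched. It does hold tatttaaaa near its end, a stretch that a search for TATAAA does not match. The IGF2R window holds 3 E-boxes, at -132 to -127, -74 to -69 and -28 to -23 counted from the start, and 6 GC boxes, of which those at -105 to -100 and -101 to -96 share bases. IGF1R has 2 GC boxes, IRS1 has 4 and IGFBP6 has 1. Over 35116 windows of the same length, 6.34% held an E-box, 0.0797% held 3 or more, 42.6% a GC box, 10.7% a TATA box, 32% a CCAAT box and 4.2% an AP-1 site. GC content was 61.2% in the windows of both IGFBP5 and IGFBP6, against 81.2% for IGF1R, 79.2% for IGF2R and 80.8% for IRS1, and CG dinucleotides numbered 8 and 9 in the first pair and 48, 33 and 39 in the others, with a median of 11 over all windows. These matches are descriptions of the letters and not evidence of binding.

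IGFBP5 dominated the binding proteins in shNT cells and was the member that differed most between groups. It had 386, 408 and 167 counts in the shNT libraries (replicates 1, 2 and 3), or 90.4, 79.6 and 83.7 CPM. In shNT+OHT it had 101, 25 and 63 counts, or 31.6, 20.6 and 18.3 CPM, so every library lay below every shNT library. In the libraries labelled shCDK12 it nearly vanished, with 1, 16 and 4 counts, or 0.232, 1.68 and 0.740 CPM. Those labelled shCDK12+OHT stood between, with 51, 72 and 31 counts, or 6.93, 6.85 and 5.62 CPM. The order of the groups was thus shNT at 84.6 ± 5.45 CPM (SD, n = 3), shNT+OHT at 23.5 ± 7.14, shCDK12+OHT at 6.47 ± 0.731 and shCDK12 at 0.884 ± 0.734, and no neighbours in that order had libraries that overlapped. In these bulk samples fewer cells that transcribe a gene and less RNA made per cell cannot be told apart.

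IGFBP6 was the next of the binding proteins. It had 20, 24 and 8 counts in shNT (4.69, 4.68 and 4.01 CPM) and 2, 2 and 10 counts in shNT+OHT (0.627, 1.65 and 2.90 CPM). It had 10, 29 and 11 counts in the libraries labelled shCDK12 (2.32, 3.04 and 2.04 CPM) and 61, 63 and 33 counts in those labelled shCDK12+OHT (8.29, 5.99 and 5.99 CPM). The order was shCDK12+OHT at 6.75 ± 1.33 CPM (SD, n = 3), shNT at 4.46 ± 0.39, shCDK12 at 2.47 ± 0.52 and shNT+OHT at 1.73 ± 1.14, and only the last pair overlapped. The groups of IGFBP6 did not fall in the order of those of IGFBP5.

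IGFBP7, which binds IGFs weakly and insulin and is also a matrix protein of vessels, had 2 to 24 counts a library. Its means were 2.04 ± 0.294 CPM (SD, n = 3) in shNT, 1.06 ± 0.544 in shNT+OHT, 1.98 ± 0.761 in shCDK12 and 2.28 ± 0.901 in shCDK12+OHT, and the shNT and shNT+OHT libraries alone failed to overlap. Its annotated span is crossed on the other strand by POLR2B and IGFBP7-AS1, which are also in the table, and since the use of strand in counting is not given in the sources used here, its few counts cannot be told apart from theirs. IGFBP4, a carrier that blocks IGF action until PAPPA cuts it, had 0 to 6 counts a library, with group totals of 11 in shNT, 3 in shNT+OHT, 5 in shCDK12 and 6 in shCDK12+OHT. IGFBP3, the main carrier in blood, had 0 to 12 counts and totals of 6, 1, 18 and 10 in the same order of groups. IGFBP2, a carrier abundant in serum and brain, had 0 to 6 counts and totals of 2, 0, 5 and 9. For IGFBP2 in shNT+OHT the absence of counts allows up to 0.382 CPM over the group, at 3 counts of the summed total, and the other group means were at most 0.424 CPM. IGFBP2 had 0 counts in each shNT+OHT library and 1 to 6 in each shCDK12+OHT library. No test was run on IGFBP2 or IGFBP4 in any comparison, since they had too few counts. Intervals and floors cover counting error only.

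Per kilobase of exon, the scale on which genes can be ranked, the mean level in shNT was 13.1 CPM per kb for IGFBP5, 3.31 for IGFBP6, 1.05 for IGFBP7, 0.62 for IGFBP4, 0.13 for IGFBP3 and 0.0274 for IGFBP2. IGF1R was at 32.8 CPM per kb, IRS1 at 16.7, IGF2R at 7.53 and IRS2 at 0.371. Since EU labels introns too, exon length is an approximate divisor. IGFBP5 thus stood between IRS1 and IGF2R, and IGFBP6 was the next highest of the 6 binding proteins.

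**Figure D1:**
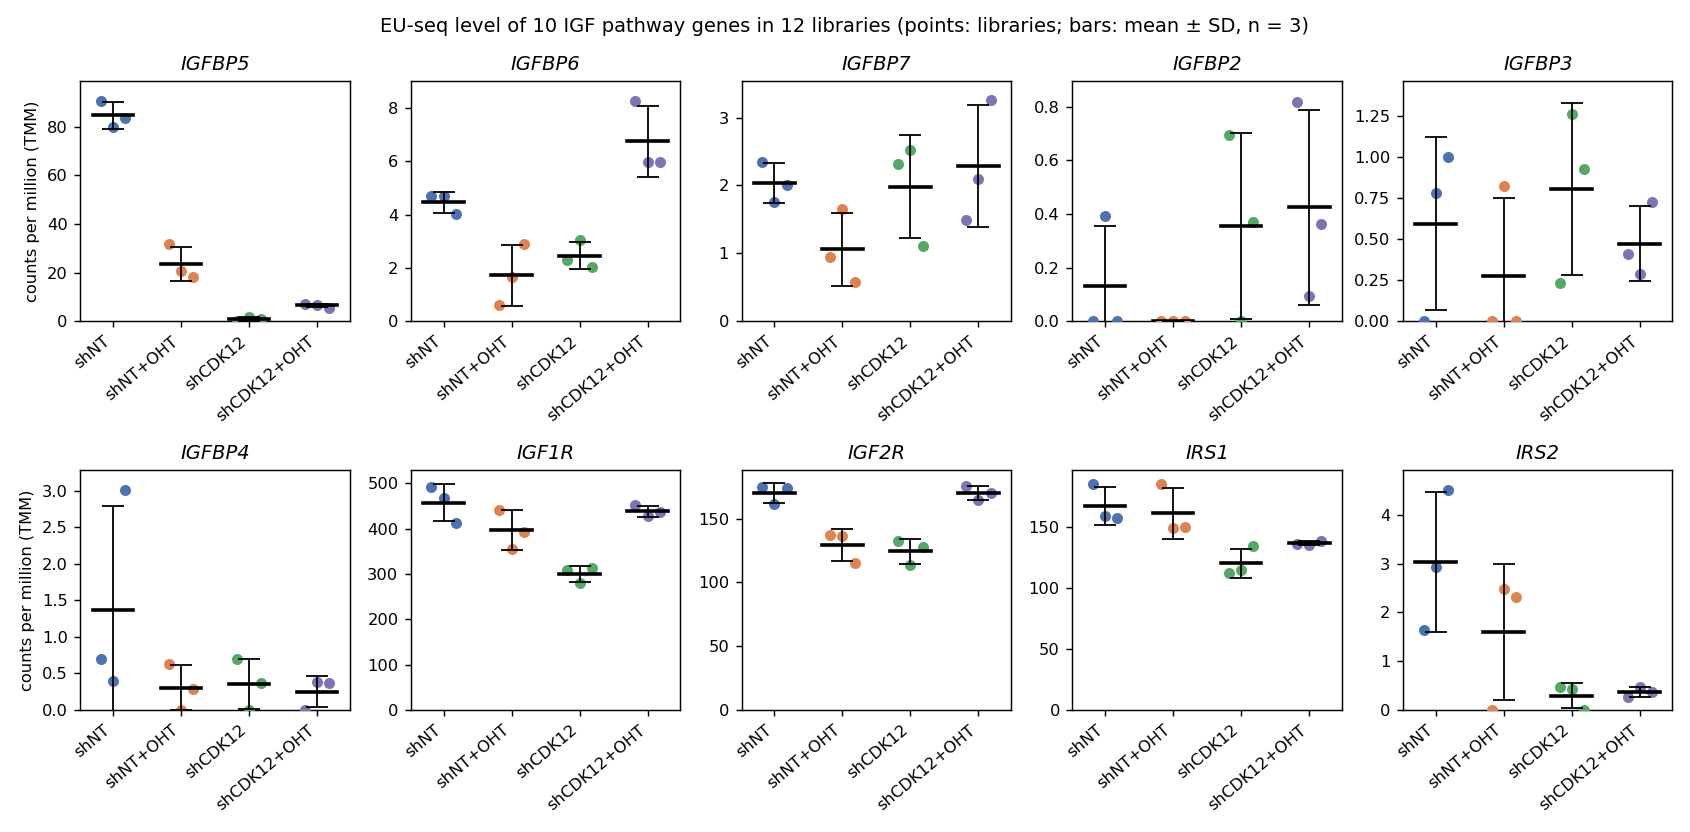
EU-seq level of each of the 10 genes in CPM (TMM-scaled, y axes from 0 and on a scale of their own) in the 4 groups; points are libraries, horizontal lines means and bars SD (n = 3). IGFBP5 falls from 79.6 to 90.4 CPM in shNT to at most 1.68 CPM in the libraries labelled shCDK12, while IGF1R, IGF2R and IRS1 lie between 112 and 492 CPM in all 12 libraries.

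Because a share within a library does not depend on how libraries are scaled, the makeup of the binding proteins was also read as IGFBP5 counts over the counts of all 6. In shNT the share was 92.1% of 419 counts (exact binomial 95% interval 89.1 to 94.5), 90.9% of 449 (87.8 to 93.4) and 89.3% of 187 (84.0 to 93.3). In shNT+OHT it was 93.5% of 108 counts (87.1 to 97.4), 83.3% of 30 (65.3 to 94.4) and 82.9% of 76 (72.5 to 90.6), and these intervals overlap those of shNT although the summed level of the 6 genes was 87.6 to 98.1 CPM in shNT and 22.0 to 33.8 CPM in shNT+OHT. In the libraries labelled shCDK12 it was 3.57% of 28 counts (0.0904 to 18.4), 19.8% of 81 (11.7 to 30.1) and 13.3% of 30 (3.76 to 30.7). In those labelled shCDK12+OHT it was 38.6% of 132 counts (30.3 to 47.5), 43.6% of 165 (35.9 to 51.6) and 34.4% of 90 (24.7 to 45.2). All 6 libraries of the shCDK12 groups lay below all 6 shNT libraries, with or without OHT. Over the pooled counts of a group, IGFBP6 held 4.93% in shNT, 6.54% in shNT+OHT, 36.0% in shCDK12 and 40.6% in shCDK12+OHT, and IGFBP7 2.18%, 3.27%, 28.8% and 13.2%. The summed level was 5.55 to 8.5 CPM in shCDK12 and 15.7 to 17.9 CPM in shCDK12+OHT.

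**Figure D2:**
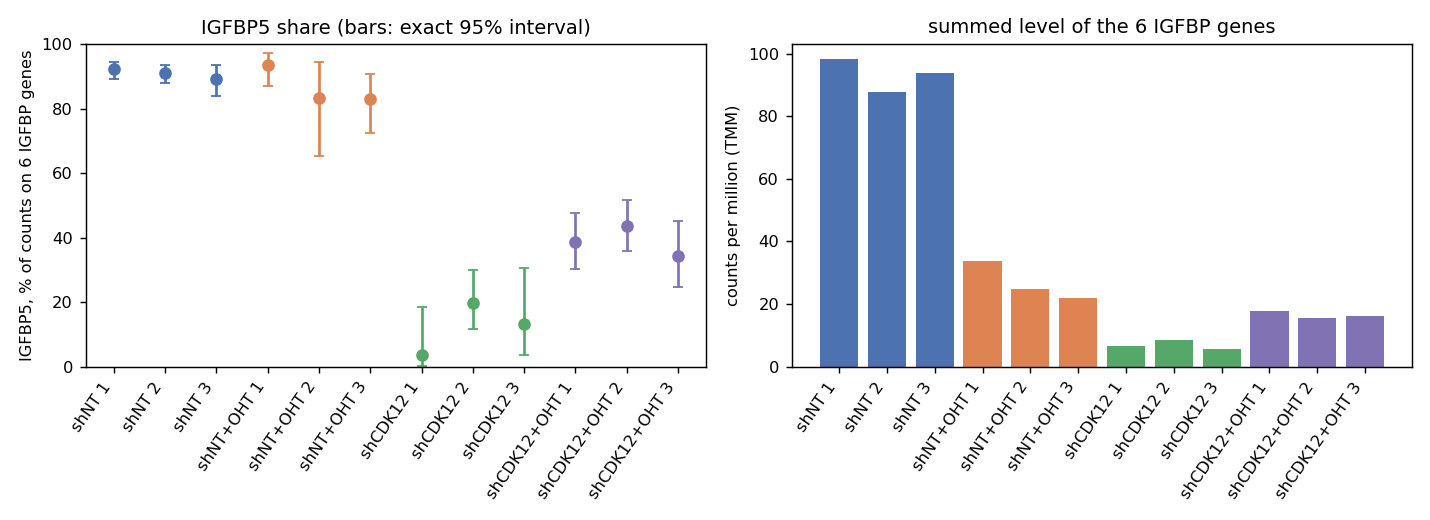
Left, the IGFBP5 share of counts on the 6 IGFBP genes in each library (percent; bars are exact binomial 95% intervals); right, the summed level of the 6 genes in each library (CPM, bars from 0). The share is 82.9% or more in the 6 shNT libraries with and without OHT and 43.6% or less in the 6 labelled shCDK12 or shCDK12+OHT.

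IGF1R was transcribed at a high rate in all groups. It had 2100, 2401 and 822 counts in shNT (492, 469 and 412 CPM) and 1410, 429 and 1352 counts in shNT+OHT (442, 354 and 392 CPM). It had 1337, 2673 and 1686 counts in the libraries labelled shCDK12 (310, 281 and 312 CPM) and 3323, 4488 and 2408 counts in those labelled shCDK12+OHT (451, 427 and 437 CPM). The shCDK12 libraries were lower than every other library, and the remaining groups overlapped. Their order was shNT at 457.5 ± 41.1 CPM (SD, n = 3), shCDK12+OHT at 438 ± 12.4 and shNT+OHT at 396 ± 44.1, with shCDK12 last at 301 ± 17.5.

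IGF2R had 747, 827 and 348 counts in shNT (175, 161 and 174 CPM) and 439, 165 and 397 counts in shNT+OHT (138, 136 and 115 CPM). It had 571, 1082 and 689 counts in shCDK12 (132, 114 and 128 CPM) and 1293, 1731 and 940 counts in shCDK12+OHT (176, 165 and 170 CPM). Its groups thus formed a high pair, shNT at 170.3 ± 7.67 CPM (SD, n = 3) and shCDK12+OHT at 170.2 ± 5.54, and a low pair, shNT+OHT at 130 ± 12.6 and shCDK12 at 124 ± 9.72, with overlap inside each pair and none between them. With the use of strand not given, counts on IGF2R cannot be told apart from those of AIRN, a noncoding RNA on its other strand, and the annotation places a pseudogene, CHP1P2, within its span. The ratio of IGF1R to IGF2R counts within a library was 2.69 ± 0.29 (SD, n = 3) in shNT, 3.07 ± 0.421 in shNT+OHT, 2.42 ± 0.0687 in shCDK12 and 2.58 ± 0.0161 in shCDK12+OHT, and the shNT range of 2.36 to 2.90 overlapped that of every other group. The other groups did not overlap each other, at 2.600 to 3.406 in shNT+OHT, 2.562 to 2.593 in shCDK12+OHT and 2.342 to 2.470 in shCDK12.

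IRS1, the more transcribed of these substrates, had 793, 815 and 315 counts in shNT (186, 159 and 158 CPM) and 593, 181 and 517 counts in shNT+OHT (186, 149 and 150 CPM). It had 485, 1093 and 726 counts in shCDK12 (112, 115 and 134 CPM) and 1003, 1428 and 765 counts in shCDK12+OHT (136, 136 and 139 CPM). The shNT and shNT+OHT libraries overlapped and lay above the others, and shCDK12 lay lowest with no overlap. The means were 168 ± 15.8 CPM (SD, n = 3) in shNT, 162 ± 20.9 in shNT+OHT, 137 ± 1.61 in shCDK12+OHT and 120.5 ± 12.1 in shCDK12. IRS2, a parallel substrate, had only 7, 15 and 9 counts in shNT, 0, 3 and 8 in shNT+OHT, 2, 4 and 0 in shCDK12 and 2, 5 and 2 in shCDK12+OHT. The ratio of IRS2 to IRS1 counts was 0.0186 ± 0.00987 (SD, n = 3) in shNT, 0.0107 ± 0.00927 in shNT+OHT, 0.00259 ± 0.00226 in shCDK12 and 0.0027 ± 0.000758 in shCDK12+OHT, and all shCDK12 and shCDK12+OHT libraries were below the lowest shNT ratio of 0.00883.

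The comparison of shNT+OHT with shNT asks what MycER activation does in control cells. It contains the fall of IGFBP5 by which the list was proposed, so values are given without a test. IGFBP5 had a log2 fold change of -1.83 (SE 0.216), 3.55-fold lower. IGF2R was at -0.40 (SE 0.134) with every OHT library below every shNT library, IGF1R at -0.21 (SE 0.117) and IRS1 at -0.05 (SE 0.138), a value near 0 whose sign turned in some alternatives. The other 6 members had a mean normalized count of 32 or less and were under the count filter. Of all genes tested 17.3% were called at an adjusted p under 0.05 in edgeR (9.05% higher and 8.29% lower), and no call is given for the members because the list rests on this comparison. Without the filter IGFBP6 was at -1.34 (SE 0.722), IGFBP7 at -1.06 (SE 1.10) and IRS2 at -0.98 (SE 0.912). Genes whose span exceeds 100 kb had a median of -0.23, and IGF1R spans 316 kb and IGF2R 142 kb. With per-library trends in gene span and GC content removed, IGF2R was at -0.25 and IGF1R at -0.06, while IGFBP5 was at -1.91, so the receptors moved towards 0 and IGFBP5 did not.

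The comparison of the libraries labelled shCDK12 with shNT asks what the shRNA does without OHT. It shares the shNT libraries with the comparison above and is to that extent not independent of how the list arose. Of all genes tested 62% were called, 29.6% higher and 32.4% lower. IGFBP5, which passed the count filter through the shNT libraries by which the list was proposed, is described without a test. Its log2 fold change was -6.27 (SE 0.254), 77.3-fold lower, and the estimate ranged from -7.28 to -5.97 as each library was left out. That SE was computed from the test statistic, and with only 21 counts in shCDK12 it overstates the precision. The other 3 members past the filter fell. IGF1R had a log2 fold change of -0.61 (SE 0.084, adjusted p = 8.07e-07 in edgeR), IRS1 of -0.48 (SE 0.101, adjusted p = 0.000209) and IGF2R of -0.46 (SE 0.0967, adjusted p = 0.000236). These falls of 1.53-fold, 1.4-fold and 1.37-fold were smaller in size than the difference of IGFBP5. Without the count filter IRS2, at 31 counts in shNT against 6 in shCDK12, was at -3.15 (SE 0.873), and with libraries thinned to equal totals at -2.29. IRS2 had enough counts for that fit through the shNT libraries alone, so no p-value is given. IGFBP6 was at -0.84 (SE 0.466, adjusted p = 0.152 in edgeR with no filter), and IGFBP7 and IGFBP3 had standard errors of 0.623 and 1.10 around -0.01 and 0.63. Of the 9 osteosarcoma and mesenchymal genes the 4 past the filter, RUNX2 (-1.85), COL1A1 (-1.80), SPARC (-1.22) and VIM (-0.85), were lower in the same comparison, all with an edgeR adjusted p of at most 4.69e-09. Among those under it ALPL was at 5.39 to 8.02 CPM in shNT and 1.99 to 4.07 CPM in shCDK12, while SP7 went the other way without overlap, at 0 to 0.469 CPM (2 counts in all) in shNT and 0.840 to 3.01 CPM (26 counts) in shCDK12, and COL1A2 had 2 counts in shNT and 8 in shCDK12.

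The comparison of the libraries labelled shCDK12+OHT with shNT+OHT asks the same question with OHT present, and shares the shNT+OHT libraries with the first comparison. Of all genes tested 45.4% were called (23.8% higher and 21.6% lower). IGFBP5, described without a test, had a log2 fold change of -1.85 (SE 0.269), 3.60-fold lower. Of the other 3 members past the filter, IGF2R alone was called and was 1.33-fold higher, at 0.42 (SE 0.12, adjusted p = 0.0155 in edgeR), a call that was lost at adjusted p values of 0.0503 to 0.0817 without shNT+OHT replicate 3 or any one of the 3 shCDK12+OHT libraries, and with gene span and GC trends removed (0.25, adjusted p = 0.0574). The median of genes over 100 kb was 0.29 in this comparison. IGF1R was at 0.16 (SE 0.106, edgeR adjusted p = 0.237) and IRS1 at -0.23 (SE 0.124, adjusted p = 0.158). With no filter IGFBP6 was higher by 1.94 on the log2 scale (SE 0.502), while the value of IGFBP5 was negative. IGFBP7 was at 1.29 (SE 0.764) and IRS2 at -1.88 (SE 1.09, adjusted p = 0.211), both in edgeR with no filter. IGFBP6 and IGFBP7 had enough counts for that fit through the shCDK12+OHT libraries alone, so no p-value is given for them.

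The comparison of the libraries labelled shCDK12+OHT with those labelled shCDK12 asks what OHT does with the shRNA present, and it shares no library with the comparison from which the list arose. Of all genes tested 48.9% were called, 27.5% higher and 21.5% lower. Higher genes made up 56.2% of these calls with TMM but 47.8% with upper-quartile scaling and 48.7% with libraries thinned to equal totals, so which direction held the majority turned with the scaling. IGFBP6 had a log2 fold change of 1.39 (SE 0.281), 2.63-fold, on a mean normalized count of 32.8 that it reached through the shCDK12+OHT libraries, and no p-value is given from that fit. In the fit of all genes without the filter it rose by 1.398 (SE 0.306, edgeR adjusted p = 3.81e-05). IGF1R was higher by 0.55 (SE 0.0742, adjusted p = 1.04e-05 in edgeR), 1.46-fold, and IGF2R by 0.46 (SE 0.0842, adjusted p = 0.00022), 1.37-fold. IRS1 was at 0.19 (SE 0.0876, adjusted p = 0.0888), or at 0.27 with an adjusted p of 0.0323 without shCDK12 replicate 3. IGFBP5, at a mean normalized count of 26.1, was under the filter. Without the filter it was higher by 2.61 on the log2 scale (SE 0.368, edgeR adjusted p = 3.16e-11), with 2.30 to 3.61 as each library was left out. With gene span and GC trends removed IGF1R was at 0.33 and IGF2R at 0.31, and each was still called.

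**Figure D3:**
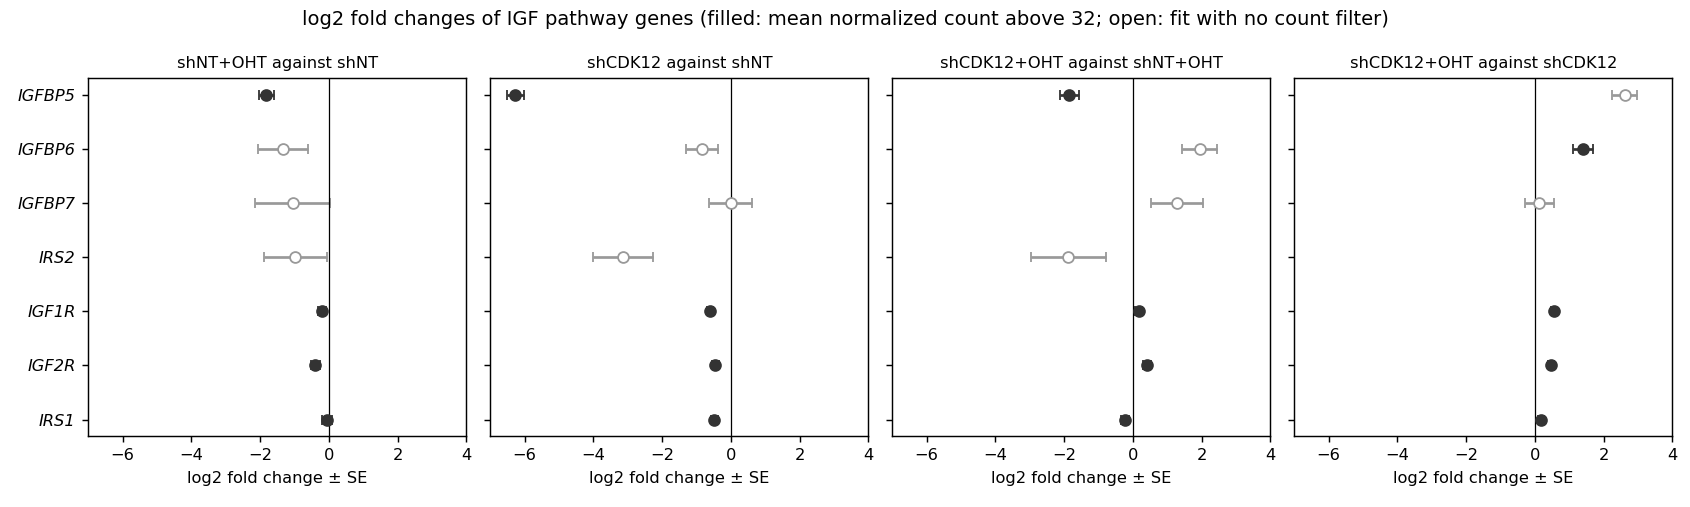
log2 fold changes with standard errors computed from the test statistic (x axis) of the 7 members with enough counts, in the 4 comparisons. Filled points passed the count filter and open points come from the edgeR fit without it. IGFBP5 lies at -1.83, -6.27 and -1.85 in the first 3 panels and at 2.61 in the last, while IGF1R, IGF2R and IRS1 lie between -0.61 and 0.55 in all of them.

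The difference between both OHT responses, shCDK12 minus shNT, contains the comparison the list was drawn from and is a description only. It was 4.41 (SE 0.426) on the log2 scale for IGFBP5, 0.85 (SE 0.15) for IGF2R, 0.75 (SE 0.14) for IGF1R and 0.23 (SE 0.162) for IRS1. Of all genes tested 45.2% were called, 25.6% positive and 19.6% negative, and no call is given for the members. Positive differences made up 56.6% of these calls with TMM and 47.2% with upper-quartile scaling. The median over all genes was 0.10 with TMM and -0.02 with upper-quartile scaling, and over genes longer than 100 kb it was 0.41. IGFBP5 and IGF2R thus were lower with OHT in shNT and higher with OHT under the shCDK12 label in every library, as the plots of levels show. Averaged over OHT, the shRNA contrast was -4.07 for IGFBP5 (SE 0.205, described without a test), -0.36 for IRS1 (SE 0.0811, edgeR adjusted p = 0.000716), -0.23 for IGF1R (SE 0.0698, adjusted p = 0.00703) and -0.03 for IGF2R (SE 0.0747, adjusted p = 0.774). It called 59% of all genes tested. These values do not depend on which of the shCDK12 groups received OHT, but they use the shNT libraries by which the list arose.

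The genes whose pattern was most like that of IGFBP5, among 11698 others with a mean normalized count above 32 and by Pearson's r of log2 CPM over the 12 libraries, were F3 (tissue factor, r = 0.989), OLFM2 (an olfactomedin-domain secreted protein, r = 0.986) and ITGA3 (the integrin alpha 3 chain, r = 0.986). The 12 points share 4 groups, so these values describe the pattern of the groups. F3 was at 284 ± 3.89 CPM (SD, n = 3) in shNT, 176 ± 14.1 in shNT+OHT, 40.3 ± 8.22 in shCDK12 and 84.4 ± 5.79 in shCDK12+OHT. ITGA3 was at 479.6 ± 11.8, 301 ± 53.6, 79.5 ± 4.72 and 165 ± 9.42 CPM in the same order, and OLFM2 at 43.4 ± 1.3, 25.1 ± 6.67, 8.62 ± 1.25 and 17.1 ± 0.782 CPM. All of them kept the order of IGFBP5 over a narrower range. Among the members, the correlation of log2 CPM with IGFBP5 was 0.870 for IRS1, 0.763 for IGF1R, 0.487 for IGF2R and 0.0817 for IGFBP6.

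**Figure D4:**
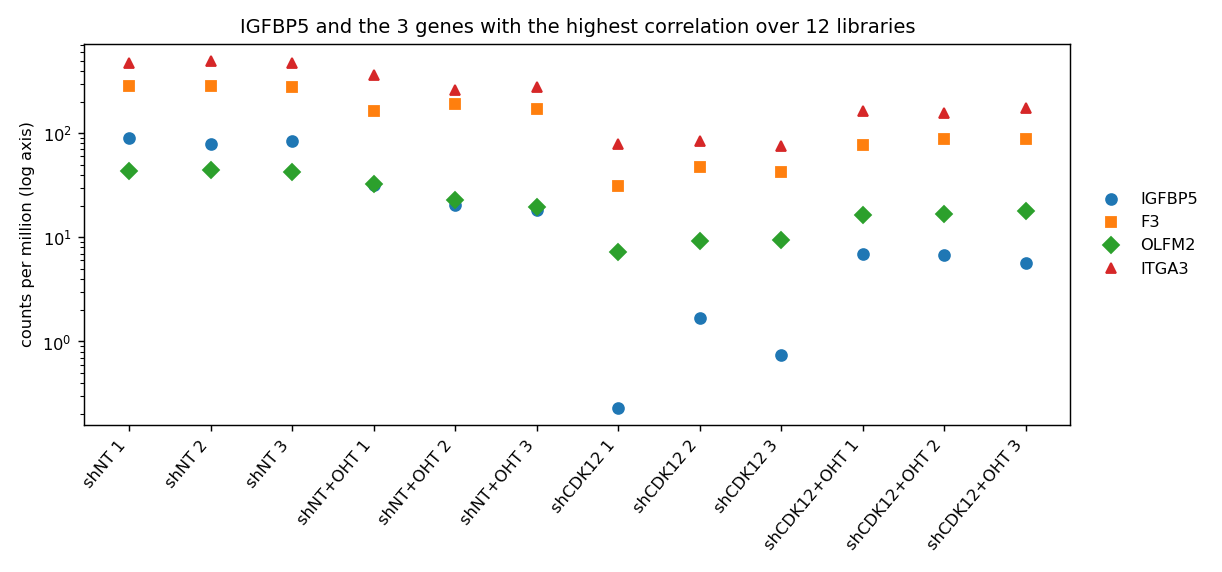
Level of IGFBP5 and of F3, OLFM2 and ITGA3 in each of the 12 libraries (CPM on a log axis; points are libraries). All of these genes are highest in shNT and lowest in the libraries labelled shCDK12, and IGFBP5 drops furthest, to 0.232 CPM.

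The rest of the pathway was read from a list of 77 genes written from general knowledge. The ligands were barely transcribed. IGF1 had 26 counts over the shNT libraries, 16 in shNT+OHT, 44 in shCDK12 and 87 in shCDK12+OHT, with group means of 1.63 to 3.64 CPM, IGF2 had 1, 8, 12 and 19 counts, and INS had 0 in all libraries, which allows up to 0.382 CPM in the shallowest group. IGFBP1, the binding protein of the liver, had 0 counts in shNT and shNT+OHT and 4 and 2 counts in shCDK12 and shCDK12+OHT. INSR, the insulin receptor, was at 22.1 ± 3.5 CPM (SD, n = 3) in shNT, 19.2 ± 2.67 in shNT+OHT, 29.5 ± 2.97 in shCDK12 and 37.7 ± 0.917 in shCDK12+OHT. It was higher in shCDK12+OHT than in shNT+OHT (log2 fold change 0.97, SE 0.181, edgeR adjusted p = 0.00145) and than in shCDK12 (0.36, SE 0.124, adjusted p = 0.0225), and at 0.39 (adjusted p = 0.0593) in shCDK12 against shNT. IGF1R was lower in that last comparison.

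In shNT+OHT against shNT 58 of the 77 genes were tested, 4 were higher and 8 lower (20.7%, against 17.3% of all genes, of which 9.05% higher and 8.29% lower), and the median log2 fold change was -0.13, where that of all genes was -0.03. The largest rises were of 3 genes of the mTOR arm, DDIT4 (1.11), an inhibitor of mTOR, EIF4EBP1 (1.03), a repressor of cap-dependent translation, and MLST8 (0.89), a subunit of mTOR complexes, and the largest falls of SOS1 (-0.96) and SOS2 (-0.87), which activate RAS, and the adaptor GAB1 (-0.87). Their edgeR adjusted p values were at most 0.0446. In shCDK12 against shNT 65 were tested, 22 higher and 23 lower (69.2%, against 62% of all genes, 29.6% higher and 32.4% lower), with a median of -0.11 against -0.03. All 11 tested adaptors and negative regulators at the receptor were called, 7 higher and 4 lower, with IRS4, SOCS1 and GRB14 among the higher ones. IRS4, a substrate related to IRS1, had the largest difference: its level was 0.234, 1.37 and 1.50 CPM in shNT and 18.5, 11.1 and 10.4 CPM in shCDK12, a log2 fold change of 3.73 (SE 0.447) on 11 counts in shNT. Next were SOCS1, a feedback inhibitor of cytokine signalling, at 1.99 and the transcription factor FOXO4 at 1.28. The largest negative values were of ADAM12 (-2.16) and PAPPA2 (-2.01), both metalloproteases that cut IGF binding proteins, and of EIF4EBP2 (-1.87), another repressor of cap-dependent translation. FOXO4 and EIF4EBP2 had edgeR adjusted p values of at most 1.38e-07. IRS4, SOCS1 and GRB14 passed the count filter through the shCDK12 libraries and ADAM12 and PAPPA2 through the shNT libraries. For these genes no p-value is given. Their calls are among the counts above, that of all 11 adaptors and negative regulators included, and are no support.

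PAPPA, also a protease that cuts IGF binding proteins, was higher in shCDK12 than in shNT by 0.78 (SE 0.149, edgeR adjusted p = 7.40e-05). This was the other direction from the values of PAPPA2 and ADAM12. In shCDK12+OHT against shNT+OHT 61 of the 77 were tested, 22 higher and 13 lower (57.4%, against 45.4% of all genes, 23.8% higher and 21.6% lower), with a median of 0.22 against 0.05. IGF2BP1, which binds IGF2 mRNA, rose by 2.36, PIK3R3, a regulatory subunit of PI3K, by 1.80 and FOXO4 by 1.78, and DDIT4 (-1.39), MLST8 (-1.31) and HRAS (-1.13) fell most, with edgeR adjusted p values of at most 0.000392. The mTOR arm had 4 genes lower and 0 higher of 13 tested, and the RAS and MAP kinase arm 7 higher and 2 lower of 13. In shCDK12+OHT against shCDK12 66 were tested, 23 higher and 9 lower (48.5%, against 48.9% of all genes, 27.5% higher and 21.5% lower), with a median of 0.16 against 0.05. ADAM12 (1.28), CTSD (0.96), a lysosomal protease that can degrade IGFBPs, and the phosphatase INPPL1 (0.94) had the largest positive values, and SOCS1 (-1.47), IRS4 (-1.25) and the receptor-binding adaptor GRB14 (-1.12) the largest negative ones. The edgeR adjusted p values were at most 0.000575 for CTSD, INPPL1, SOCS1 and IRS4, and none is given for ADAM12 and GRB14, which passed the filter through the group where they were high. ADAM12, SOCS1 and IRS4 each had the opposite sign here to that in shCDK12 against shNT, a comparison that shares the shCDK12 libraries.

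**Figure D5:**
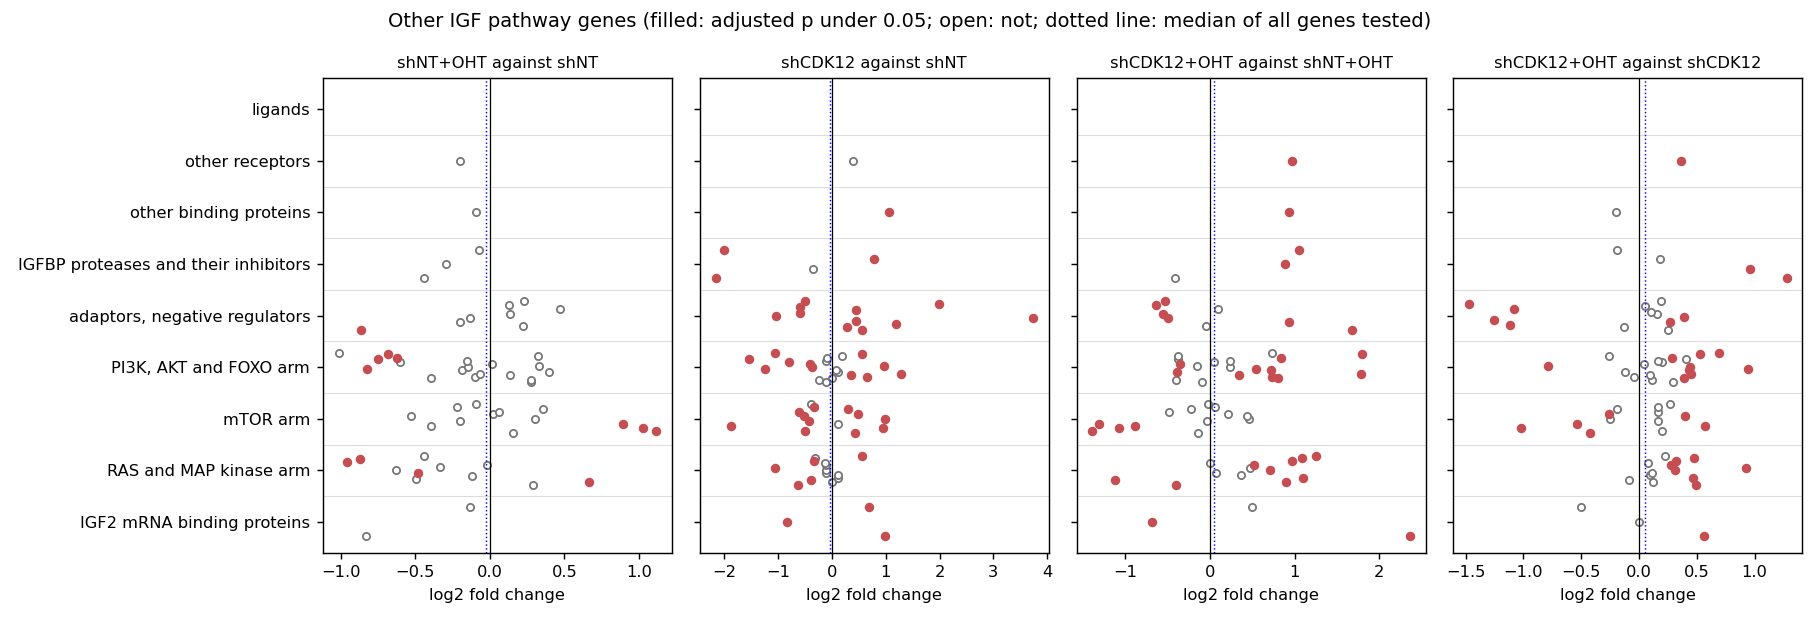
log2 fold changes (x axes, a scale of their own in each panel) of the genes tested among the 77 other pathway genes, in 4 comparisons and by role; filled points have an edgeR adjusted p under 0.05 and the dotted line is the median of all genes tested. The ligands have no point because none passed the count filter, and the farthest point is IRS4 at 3.73 in shCDK12 against shNT.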

How the data were processed

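The authors deposited raw counts per gene for 12 EU-seq libraries (Entrez identifiers, hg19). Per the labels the kit was TruSeq Stranded Total RNA Gold, and the submitters' processing notes name STAR 2.7.5c and featureCounts 1.4.5-p1. The annotation and the use of strand are not given in the sources used here. No normalization had been applied. Symbols were matched through RefSeq for 23284 of 23434 rows, and the 150 others stayed in the tests. Promoters come from RefSeq (GRCh38.p14), with 11 windows for 9 of the 10 members and none for IGFBP7.

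The tests were run in edgeR 4.0.16 under R 4.3.3 (TMM, quasi-likelihood test, Benjamini-Hochberg over all genes tested, threshold 0.05) on genes whose normalized count averaged above 32 in the 6 libraries of a comparison, or in all 12 for the interaction and the average over OHT. Each SE given with an edgeR value is the absolute log2 fold change divided by the square root of the quasi-likelihood F statistic. It can be too small where a large change rests on few counts. The fits were tested on simulated data. CPM and correlations used TMM over the 12 libraries, with a prior count of 2 for log2 CPM. Named genes are all members, of the 77 pathway genes the 3 largest called rises and falls with no overlap between libraries in each comparison, every ligand, INSR and IGFBP1, and the 3 genes most like IGFBP5; IRS4's levels, PAPPA and the marker genes named with values were added after their values were seen. Members and lists were chosen with earlier results of these data known. Alternatives were DESeq2 1.42.0, upper-quartile scaling, other filters, a replicate block, 1 fit of all libraries, thinning to 1251695 counts and leaving out each library. Chosen after seeing the data were the fits without the filter for members with 20 or more counts, the average over OHT, and loess trends (span 0.4) in gene span and GC content, known for over 98% of genes tested, removed as offsets. No 2 libraries of a group agreed within sampling noise.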

Additional observations from a re-analysis of the deposited data

Results flagged for a closer look

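The difference in OHT response between the shRNA groups is given for 3 members as a description, with no test, because it contains the comparison of shNT+OHT with shNT from which the list arose. IGFBP5 and IGF2R were lower with OHT in every shNT library and higher with OHT in every library labelled shCDK12, while for IGF1R the shNT and shNT+OHT libraries overlapped. The log2 difference, shCDK12 minus shNT, was 4.41 for IGFBP5, 0.85 for IGF2R and 0.75 for IGF1R, against a median of 0.10 over all genes tested and 0.41 over genes longer than 100 kb. With gene span and GC trends removed it was 4.41, 0.56 and 0.39. The IGFBP5 response in shNT is the value by which the list was proposed. CDK12 counts cannot settle whether the labels of the shCDK12 groups are right, so these differences stand as values. Were the labels shCDK12 and shCDK12+OHT exchanged, the OHT response in those groups would change sign for every gene. An exchange of labels was not tested.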

How the results depend on the processing

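Genes called numbered 1782 in shNT+OHT against shNT but 3237 with all 12 libraries in one fit (12 and 21 of the pathway list), and 670 to 2523 (4 to 16 of the list) as each library was left out: 751, 670 and 818 without shNT replicate 1, 2 or 3 (5, 4 and 6 of the list) and 1101 without shNT+OHT replicate 3. In shCDK12+OHT against shNT+OHT 5298 became 3520 to 6238, with 3527 and 3520 without shCDK12+OHT replicate 1 or 2. Thinned to equal totals, 7265 in shCDK12 against shNT became 4497 (45 and 29 of the list), 5298 became 3142, 6128 in shCDK12+OHT against shCDK12 became 3235 (32 and 17) and 5289 in the interaction became 3215 (34 and 19), so depth limits the counts. Near 0, signs turned for IRS1 in shNT+OHT against shNT (0.024 with length and GC trends removed, -0.16 to 0.036 as each library was left out, positive without shNT replicate 1 or shNT+OHT replicate 2 or 3), CDK12 in shCDK12 against shNT (0.015 with upper-quartile scaling, 0.012 with trends removed), IGF1R in shCDK12+OHT against shNT+OHT (-0.058 with trends removed) and, with no filter, IGFBP7 in shCDK12 against shNT (0.073 upper-quartile, 0.00033 with the block, 0.12 and 0.26 without shNT replicate 1 or shCDK12 replicate 3), in shCDK12+OHT against shNT+OHT (-0.41 thinned), in shCDK12+OHT against shCDK12 (-1.28 thinned, -0.13 and -0.15 without shCDK12 or shCDK12+OHT replicate 3) and in the interaction (-0.26 thinned), and IGFBP3 in the interaction (-0.74 thinned); the cause was not tested. Over all alternatives, values of CDK12 and of members past the filter kept direction and side of the threshold 346 times, lost a call 10 times, gained one 6 times and turned 7 times, and members under it did so 192, 2, 1 and 10 times. IGFBP5, IGF2R and IGFBP6 did not turn in any.

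Libraries of the same number shared only that number: their deviations correlated at -0.0919 to 0.304, over 0.1 in 2 of 18 pairs. With the replicate number as a block the counts were 1734, 7437, 4846, 6236 and 5385 in the 4 comparisons and the interaction, and 13, 45, 33, 35 and 34 of the pathway list, and no member's call changed.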

Other observations

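Of the 3 genes for IGF2 mRNA binding proteins 2 were higher and 1 was lower in shCDK12 than in shNT. In that comparison 62% of all genes tested were called, 29.6% higher and 32.4% lower. IGF2BP1 was at 13.8 ± 1.65 CPM (SD, n = 3) in shNT, 7.16 ± 3.69 in shNT+OHT, 27.4 ± 2.16 in the libraries labelled shCDK12 and 40.2 ± 0.677 in those labelled shCDK12+OHT. It was higher in shCDK12 than in shNT by 0.98 on the log2 scale (SE 0.194, edgeR adjusted p = 0.000113). IGF2BP3 was at 8.82 ± 2.29, 8.06 ± 3.8, 13.8 ± 4.24 and 10.1 ± 0.596 CPM in the same order, with a log2 fold change of 0.70 (SE 0.28, edgeR adjusted p = 0.0339) in shCDK12 against shNT although the libraries overlapped. IGF2BP2, the most transcribed of the 3, went the other way, at 157.8 ± 16.8, 143 ± 23.9, 89.1 ± 5.65 and 88.8 ± 7.78 CPM in the same order, with a log2 fold change of -0.83 (SE 0.103, edgeR adjusted p = 1.48e-07) in shCDK12 against shNT and -0.68 (SE 0.144, adjusted p = 0.00301) in shCDK12+OHT against shNT+OHT. Their target IGF2 had at most 8 counts in any library. IGFBPL1, a relative of the binding proteins, was at 11.1 ± 2.54, 9.96 ± 3.14, 22.9 ± 3.23 and 19.7 ± 1.1 CPM, and thus was higher in both groups labelled shCDK12 while IGFBP5 was lower there.

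STC2, an inhibitor of PAPPA, was at 2.14 ± 1.16 CPM (SD, n = 3) in shNT, 6.28 ± 1.29 in shNT+OHT, 5.02 ± 1.8 in shCDK12 and 4.46 ± 0.621 in shCDK12+OHT, and HTRA1, another protease of the binding proteins, at 5.61 ± 3.83, 1.32 ± 1.19, 1.26 ± 0.314 and 1.75 ± 0.98 CPM. These levels rest on 28 to 106 counts a group for STC2 and 10 to 52 for HTRA1. Both, with the IGF2 mRNA binding proteins and IGFBPL1, were named here after their values were seen.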
